A study of Homo sapiens with 4 samples.

Results

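The nuclear-encoded subunits of the mitochondrial respiratory chain and of ATP synthase were described across 4 RNA sequencing libraries of engineered prostate cancer tissues. They were chosen by a rule on gene symbols (NDUFA, NDUFB, NDUFC, NDUFS and NDUFV followed by a number, SDHA to SDHD, UQCR, CYC1, COX4 to COX8 and ATP5), which gave 86 of the 17791 genes in the table. Earlier results of these data were known when they were chosen. By complex there were 36 genes of complex I, 4 of complex II, 11 of complex III, 16 of complex IV and 19 of complex V. NDUFA4 and its paralogue NDUFA4L2 carry complex I names but were counted with complex IV, where the NDUFA4 protein sits. COX4I2, COX6A2 and COX8C were not analysed here.

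The tissues were human cancer cells grown in a poly(ethylene glycol)-fibrinogen hydrogel and sampled at day 15. Both cancer lines are established prostate lines: PC-3 tissues carry the label CRPC-ne and LNCaP tissues the label ADPC. Each line was grown alone (monoculture) or with BJ-5ta, an immortalised line of human fibroblasts, at 5 cancer cells to 1 fibroblast (coculture), which made 4 groups of 1 library. The growth text is the same for all samples and covers only PC-3, and the medium used for LNCaP is not given there. RNA came from several tissues, and how they were combined was not given. BJ-5ta cells are 1 immortalised line, so the fibroblasts are not those of a prostate.

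The respiratory chain passes electrons from NADH (complex I) and succinate (complex II) through coenzyme Q, complex III and cytochrome c to oxygen at complex IV, and complex V uses the resulting proton gradient to make ATP. Complexes I, III, IV and V have a core that does the catalysis and, around it, small supernumerary subunits that serve assembly and stability, while complex II has its core subunits only. Part of the core of complexes I, III, IV and V is encoded in mitochondrial DNA, and those transcripts were not analysed here. Of the 86 genes, 21 were taken as core or central subunits (such as NDUFS1, SDHA, UQCRC1, COX4I1 and ATP5F1B) and 65 as outside the core. This hand-made list is called core below, and it differs from the catalytic core. It holds COX4I1, COX5A and COX5B of complex IV and UQCRC1 and UQCRC2 of complex III. It leaves out ATP5MC1, ATP5MC2, ATP5MC3, ATP5F1D and ATP5F1E of complex V.

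Library totals lay between 15520243 and 15865690 estimated counts. Levels are given as CPM, counts per 1000000 counts after TMM scaling, and the upper limit for a gene at 0 is 3 counts, which is 0.188 to 0.193 CPM. With 1 library per group no test of a difference between groups was possible: each comparison is between libraries, and every 95% interval covers counting error only, with reads taken as independent although they carry no molecular identifiers. The marker genes of each line summed higher in that line. The 6 LNCaP markers summed to 8506 and 10165 CPM in the LNCaP monoculture and coculture, and to 489 and 438 CPM in those of PC-3. TMPRSS2 made up most of the PC-3 sums, at 458 and 407 CPM. The PC-3 markers CD44, VIM and CAV1 summed to 1037 and 915 CPM in PC-3 and to 98.8 and 407 CPM in LNCaP. From the LNCaP monoculture to its coculture VIM went from 98.7 to 338 CPM, CD44 from 1 to 776 counts and CAV1 from 0 to 297 counts. Whether cancer cells or the added fibroblasts gave these transcripts was not tested. KLK3, which encodes prostate-specific antigen, had 60226 and 74134 counts in the LNCaP monoculture and coculture and 0 in either PC-3 library. The 14 fibroblast markers summed to 137 CPM in the PC-3 monoculture and 4.62 CPM in the LNCaP monoculture, with 4 and 6 of them at 0, against 679 and 963 CPM in the cocultures, where none was at 0. A coculture library therefore mixes transcripts of cancer cells and fibroblasts, and fewer cells of a type cannot be told apart from less RNA per cell. How far fibroblast RNA contributed to the values below was not tested.

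The sequence before the start of 4 members shows what these promoters look like in the genes that the results turn on or, for NDUFB4, in the member of complex I with the highest level per length. Windows of 250 bases before the RefSeq start were searched on both strands for the NRF1 core GCGCATGC, the ETS core CCGGAAG, and the core letters ACGTG and GCGTG of hypoxia-inducible factor sites. NRF1 and the ETS factor GABP are known activators of respiratory genes, and hypoxia-inducible factor is known to act on NDUFA4L2. RefSeq windows matched 69 members (83 windows). The NRF1 core was found in 16.9% of member windows and 3.26% of the 22180 windows of protein-coding genes. The ETS core was found in 22.9% and 10.7%, ACGTG in 19.3% and 20.2%, and GCGTG in 48.2% and 38.2%. The motifs and the genes shown were chosen after expression values had been seen, and a match is letters only, not a bound site. The sequences are RefSeq, GRCh38.p14, 5′ to 3′ on the gene's strand, without bases inside the GENCODE gene. Capitals mark matches to any of the 4 motifs; in NDUFB4 overlapping matches of GCGCATGC on the 2 strands form 1 longer run. The NDUFB4 stretch is chr3:120596086-120596308 (plus strand), that of COX5B chr2:97645812-97646039 (plus), that of NDUFA4 chr7:10940257-10940403 (minus) and that of NDUFA4L2 chr12:57240763-57241012 (minus).
NDUFB4: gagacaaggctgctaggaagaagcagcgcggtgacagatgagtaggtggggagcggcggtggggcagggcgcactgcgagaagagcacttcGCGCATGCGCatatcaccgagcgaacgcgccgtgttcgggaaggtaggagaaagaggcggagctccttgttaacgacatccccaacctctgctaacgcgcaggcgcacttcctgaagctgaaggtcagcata
COX5B: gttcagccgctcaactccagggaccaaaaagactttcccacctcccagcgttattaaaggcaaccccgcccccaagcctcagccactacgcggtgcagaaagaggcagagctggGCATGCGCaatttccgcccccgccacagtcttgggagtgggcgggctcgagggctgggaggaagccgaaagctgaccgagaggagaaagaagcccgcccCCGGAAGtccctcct
NDUFA4: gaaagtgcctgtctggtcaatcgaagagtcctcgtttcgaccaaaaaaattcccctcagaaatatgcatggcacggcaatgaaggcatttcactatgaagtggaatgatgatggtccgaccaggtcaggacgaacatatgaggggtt
NDUFA4L2: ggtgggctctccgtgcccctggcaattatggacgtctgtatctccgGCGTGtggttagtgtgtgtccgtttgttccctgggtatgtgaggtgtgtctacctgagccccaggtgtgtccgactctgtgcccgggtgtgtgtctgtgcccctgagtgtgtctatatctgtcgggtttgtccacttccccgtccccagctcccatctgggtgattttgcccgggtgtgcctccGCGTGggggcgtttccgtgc

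Most members were well above the counting floor. Of the 86, 83 had at least 1 CPM in a library, and 81 had a mean of at least 20 CPM over the 4 libraries, between 22.1 and 720 CPM with a median of 85.5 CPM. The other members were isoforms known from other tissues, a minor copy and a pseudogene. ATP5MGL had 0 to 2 counts. For COX6B2 and COX7B2, isoforms known from testis, the PC-3 monoculture gave 16 and 25 counts. COX7A1, the isoform of heart and skeletal muscle, had 4 counts in the LNCaP coculture and 0 elsewhere, and the pseudogene UQCRBP1 had 4 to 11 counts.

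Per kilobase of transcript, the highest mean level in each complex was that of NDUFB4 in complex I (229 CPM per kilobase), SDHA, the flavoprotein of complex II (61.2), UQCRQ in complex III (315), COX4I1 in complex IV (439) and ATP5F1B, the catalytic beta subunit of complex V (392). Among members reaching 1 CPM in a library, the lowest were NDUFA9 (5.33), SDHC (14.2), UQCRB (23.6), COX6B2 (0.989) and ATP5PB (46.6) CPM per kilobase, in the same order of complexes. The annotated transcripts of NDUFA9, SDHC and UQCRB are long, which lowers their level on this scale. Together the 86 genes took 0.773% and 0.649% of counts in PC-3 (monoculture and coculture) and 1.14% and 0.923% in LNCaP. Without NDUFA4L2 the LNCaP shares were 1.06% and 0.854%, and those of PC-3 were unchanged at this rounding. The LNCaP libraries held the larger shares, and each coculture held less than its monoculture. By complex, the ratio of summed counts of coculture to monoculture in PC-3 was 0.836 for complex I, 0.923 for II, 0.859 for III, 0.797 for IV and 0.868 for V. In LNCaP it was 0.793, 0.872, 0.789, 0.737 and 0.864. Complex II was nearest to 1 and complex IV farthest from it in either line. For LNCaP against PC-3 in monoculture the ratios were 1.2, 1.11, 1.3, 1.84 and 1.82, and that of complex IV was 1.28 (1.26 to 1.31) without NDUFA4L2. In coculture they were 1.14, 1.05, 1.19, 1.7 and 1.81, and that of complex IV was 1.14 (1.11 to 1.16) without it.

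The first comparison asks how subunit transcripts in PC-3 tissues differed with fibroblasts present. Nearly all subunits were slightly lower in the coculture: of 83 measured members (at least 1 CPM in 1 of the 2 libraries), 77 had a log2 fold below 0, against 49.2% of all 14417 genes measured. The differences were small. None was at least 1.5-fold higher and 8 were at least 1.5-fold lower, where the shares over all genes were 4.65% and 3.86%. None passed 2-fold either way (2.22% higher and 1.01% lower over all genes). The median log2 fold was -0.32, beside 0 over all genes, and summed counts gave a ratio of 0.845 (95% counting interval 0.838 to 0.852). Of the 81 members with a mean of at least 20 CPM, 65 had an interval wholly below a ratio of 1 and 2 wholly above it, where the shares over all 8912 genes at that level were 24.3% and 24.5%. Beside these values, COL1A2, a fibroblast collagen gene, had 1 count in the monoculture and 2026 in the coculture, the highest log2 fold of all genes measured. The 14 fibroblast markers ran from 0.34 (FBN1) to 9.41 (COL1A2), with a median of 5.23.

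Among members that reached 20 CPM in either library, the lowest were small supernumerary subunits. NDUFC1, in the membrane arm of complex I (chromosome 4, 139266880 to 139302551), had 30.8 CPM in the PC-3 monoculture and 18.6 CPM in the PC-3 coculture, 63.8 CPM in the LNCaP monoculture and 36.6 CPM in the LNCaP coculture. Either coculture was lower than its monoculture, and the PC-3 ratio was 0.605 (0.521 to 0.7). UQCR10, a small subunit of complex III, had a log2 fold of -0.67, and NDUFA3, NDUFB3 and NDUFA2 of complex I had -0.63, -0.61 and -0.61. NDUFB1, also of complex I, was at -0.85, from 243 and 131 counts (15.2 and 8.36 CPM).

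The members above 0 were all on the core list defined above. SDHA (chromosome 5, 218241 to 256700) had 157 CPM in the PC-3 monoculture and 170 CPM in its coculture, a ratio of 1.08 (1.02 to 1.14). NDUFS7, UQCRC1 and UQCRC2 each had a log2 fold of 0.03. Over the 21 core subunits the median log2 fold was -0.11, with 15 below 0, and over the 62 measured members outside the core it was -0.38, with 62 below 0. After the coding length correction described below these medians were -0.03 and -0.10, and after transcript length correction 0.02 and -0.15, so the core median crossed 0.

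The same comparison in LNCaP tissues also had small subunits lowest, and core subunits were again among those above 0. Of 81 measured members, 73 had a log2 fold below 0, against 49.9% of 14119 genes. None was at least 1.5-fold higher and 27 were at least 1.5-fold lower, where the shares over all genes were 7.88% and 8.95%. None was at least 2-fold higher and 9 were at least 2-fold lower (4.56% and 3.03% over all genes). The median log2 fold was -0.42, beside 0 over all genes, and the ratio of summed counts was 0.804 (0.799 to 0.81). Intervals lay wholly below a ratio of 1 for 69 of 81 members and wholly above it for 7, where the shares over all genes at that level were 26% and 33.5%. COL1A2 had 0 counts in the monoculture and 3577 in the coculture, again the highest log2 fold of all genes measured. The 14 fibroblast markers ran from 3.7 (COL3A1) to 10.83 (COL1A2).

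The 9 members past 2-fold came from complexes I, III, IV and V. After correction for transcript length, coding length or the longest transcript, 2, 1 and 3 members were past it. No share over all genes after correction is given beside these counts. NDUFA1, a small membrane subunit of complex I needed for its assembly (chromosome X, 119871487 to 119876662), had 46.4 CPM in the LNCaP monoculture and 16.1 CPM in the LNCaP coculture, against 36.7 and 26.7 CPM in the PC-3 monoculture and coculture. The LNCaP coculture was the lowest of the 4 libraries, and it was 2.88-fold lower than its monoculture (2.49 to 3.34). NDUFA4 (chromosome 7, 10931951 to 10940256) had 106 and 44.3 CPM in the LNCaP monoculture and coculture and 72.5 and 50.2 CPM in those of PC-3, and was 2.4-fold lower in the LNCaP coculture (2.2 to 2.63). Its promoter window, shown above, held none of the motifs.

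Genes of the membrane part of ATP synthase came next. ATP5MF (subunit f) had 130 and 58.1 CPM in the LNCaP monoculture and coculture, and 68.8 and 52.5 CPM in those of PC-3. Its level in LNCaP was the higher one in monoculture and near that of PC-3 in coculture, with a log2 fold of -1.17, and ATP5MD and ATP5ME (subunit e) had -1.16 and -1.14. COX5B, a subunit of complex IV on its matrix side (chromosome 2, 97646040 to 97648383), had 106 and 50.8 CPM in the LNCaP monoculture and coculture and 65.8 and 57.8 CPM in those of PC-3. It was 2.08-fold lower in the LNCaP coculture (1.91 to 2.27) and the only gene of the core list there past 1.5-fold. NDUFB3 and UQCR10 had log2 folds of -1.06 and -1.05. COX7B, a small subunit of complex IV with 86.3 and 42.9 CPM in the LNCaP libraries, was also past 2-fold.

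Of the 8 members above 0 in the LNCaP coculture, 7 were core subunits, and the other was NDUFA5 at 0.04. SDHA had 121 CPM in the LNCaP monoculture and 138 CPM in its coculture, a ratio of 1.14 (1.07 to 1.21). NDUFS1, the largest iron-sulfur subunit of complex I, SDHA, UQCRC2 (a core protein of complex III) and ATP5F1B had log2 folds of 0.20, 0.19, 0.16 and 0.13. Over the 21 core subunits the median log2 fold was -0.11 and over the 60 measured members outside the core it was -0.51, where 59 were below 0. After coding length correction they were -0.08 and -0.26, and after transcript length correction -0.03 and -0.25.

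Core membership goes with length in these genes, and the coculture folds followed coding length. Over the 81 members with a mean of at least 20 CPM, Pearson's r between the log2 fold and log2 coding length was 0.74 for PC-3 and 0.71 for LNCaP (Spearman's rho 0.76 and 0.68). These correlations are across genes that share the same libraries and are descriptions. Over 8540 other genes at this level r was 0.32 and 0.09 and rho 0.48 and 0.13. Members with a coding length under 450 bases had a median log2 fold of -0.42 in the PC-3 coculture, with 8 of 50 at least 1.5-fold lower, and of -0.60 in the LNCaP coculture, with 24 of 48. Over all other genes under 450 bases the shares at least 1.5-fold lower were 8.45% and 20.9%, and over the members 16% and 50%. Among those other genes at a mean of 20 CPM or more, without cytosolic ribosomal proteins, the shares were 3.56% and 13%. Cytosolic ribosomal protein genes of any length had 11.2% and 67.5%, the latter above the members. Members of 450 bases or more had medians of -0.18 and -0.26.

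Other short genes also had medians below 0. Genes under 450 bases that were no members or cytosolic ribosomal proteins, at a mean of 20 CPM or more, had medians of -0.24 in the PC-3 coculture (478 genes) and -0.19 in that of LNCaP (468 genes). After coding length correction these became 0.04 and 0.08. Cytosolic ribosomal protein genes had medians of -0.45 and -0.73, and mitochondrial ribosomal protein genes -0.16 and -0.20. With coding length corrected, the cytosolic ones had -0.24 and -0.61, farther from 0 than the members below, and the mitochondrial ones -0.04 and -0.06. After a loess correction for coding length and GC content over all genes, the members' medians were -0.08 in the PC-3 coculture and -0.22 in that of LNCaP, and 0 and 14 members were at least 1.5-fold lower. With transcript length in place of coding length the medians were -0.12 and -0.19, with the same counts. Shares over all genes after correction are not given here, so these counts have no background beside them. The members' medians thus lay nearer to 0 after either correction, and the part of length in single genes was not tested. The 450-base boundary, the coding length correction and the transcript used per gene were chosen after the folds had been seen.

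**Figure D1:**
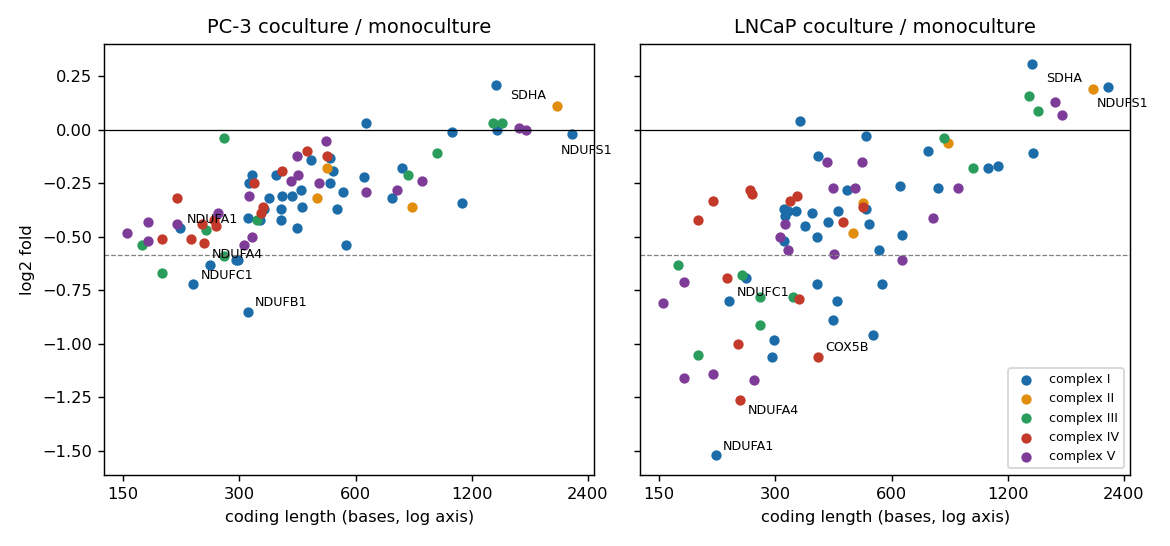
Log2 fold of coculture against monoculture (vertical axis) by coding length in bases (horizontal, log axis) for the 81 members with a mean of at least 20 CPM, 1 point per gene and 1 library per group, coloured by complex; the dashed line marks 1.5-fold lower. Short members lie lowest in either panel, with NDUFA1 at -1.52 in LNCaP, and long core subunits such as SDHA (0.11 and 0.19) lie above 0.

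For each gene the PC-3 coculture fold was taken from the LNCaP one, and these folds share no library. Of 83 measured members, 59 had a difference below 0, against 48% of all genes, with a median of -0.12. A difference past 1.5-fold was seen in 1 member upward and 8 downward, where the shares over all genes were 11.2% and 12.3%, so neither count stood above the background. The 95% counting interval lay wholly below 0 for 33 of 81 members and wholly above 0 for 9, where the shares over 8772 genes at that level with counts in all libraries were 21.5% and 28.2%.

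NDUFA1 had the lowest difference, -1.06 (-1.33 to -0.78), followed by COX5B at -0.87 (-1.05 to -0.69), ATP5MF at -0.78, UQCRHL at -0.74 and NDUFA4 at -0.73. At the other end, NDUFB1 had 0.48 (0.13 to 0.84), NDUFA5 0.41 (0.21 to 0.60), SDHB 0.30, NDUFB10 0.23, and NDUFS1 and NDUFV2 0.22 each. NDUFA5 had a log2 fold of -0.37 in the PC-3 coculture and 0.04 in that of LNCaP. SDHB, the iron-sulfur subunit of complex II, had -0.36 and -0.06.

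**Figure D2:**
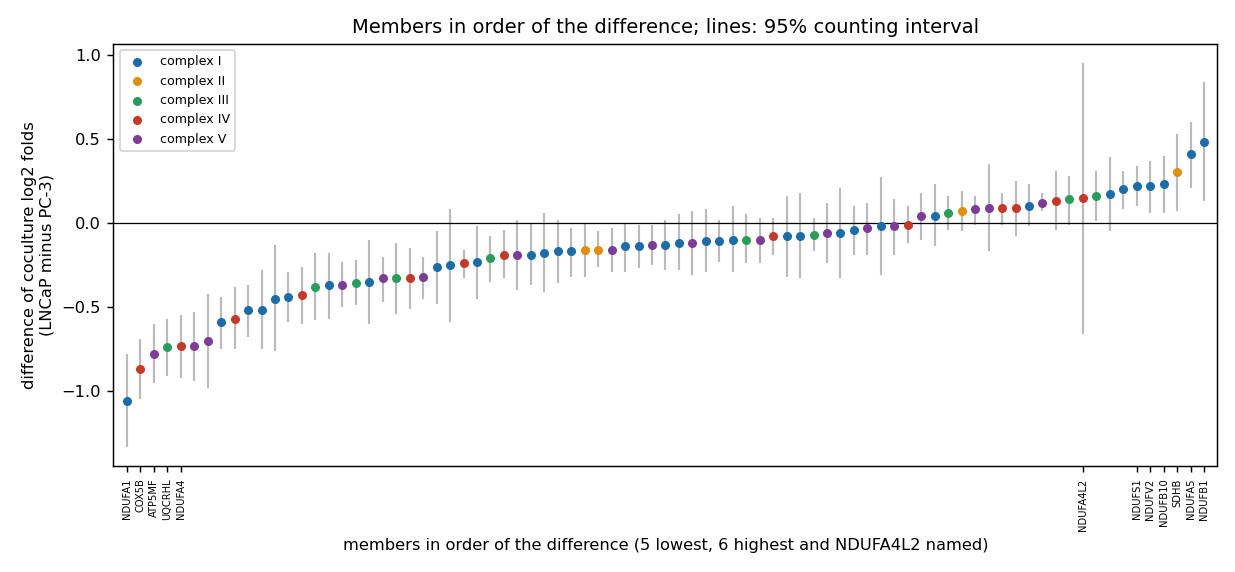
Difference of the coculture log2 folds, LNCaP minus PC-3 (vertical axis), for the 81 members with a mean of at least 20 CPM in order of the difference (horizontal axis, with the 5 lowest, the 6 highest and NDUFA4L2 named); points are coloured by complex and lines are 95% counting intervals. The values run from -1.06 for NDUFA1 to 0.48 for NDUFB1, and the interval of NDUFA4L2 is wide because it had 30 and 21 counts in the PC-3 libraries.

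LNCaP and PC-3 tissues were then compared within each culture format. In monoculture more members were higher in LNCaP than lower: 60 of 83 had a log2 fold above 0, against 51.3% of 15160 genes. At least 1.5-fold higher were 36 members and at least 1.5-fold lower 5, where the shares over all genes were 32.3% and 31.4%. At least 2-fold higher were 18 and lower 2 (22.1% and 23.6% over all genes). The share of higher members was thus near the background at 2-fold. After transcript length correction 9 members were at least 2-fold higher and 12 at least 1.5-fold lower, with no corrected share over all genes given here. The median log2 fold was 0.44, beside 0.04 over all genes, and was 0.44 also with the member at 0 in LNCaP set at its bound.

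In coculture 48 of 81 members were above 0, against 50.2% of 15155 genes. At least 1.5-fold higher were 27 and lower 5 (31% and 32.1% over all genes), and at least 2-fold higher were 15 and lower 1 (20.7% and 23.6%). The median was 0.22, beside 0.01 over all genes. Correction for transcript length and GC content brought the medians to 0.12 in monoculture and 0.09 in coculture, and correction for coding length to 0.30 and 0.17.

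Before correction, complex V had the highest median of the 5 complexes in either format. Of its 18 measured genes, 16 were above 0 in monoculture, 12 by at least 1.5-fold (51.3% and 32.3% over all genes), with a median log2 fold of 0.93, and 13 were above 0 in coculture with a median of 0.57. Complex III was close to it in coculture, at 0.54. There the medians of complexes III and V were 0.45 and 0.44 after coding length correction, and 0.35 and 0.44 after transcript length correction. Complex I also had 12 members at least 1.5-fold higher in monoculture, out of 36. ATP5F1A, the alpha subunit of ATP synthase (chromosome 18, 46080248 to 46104334), had 165 and 164 CPM in the PC-3 monoculture and coculture and 621 and 652 CPM in those of LNCaP. The PC-3 values lay close together and far below those of LNCaP, with ratios of 3.77 (3.61 to 3.93) in monoculture and 3.97 (3.8 to 4.15) in coculture. ATP5F1B had ratios of 1.92 (1.86 to 1.97) and 2.09 (2.03 to 2.14), and ATP5F1C, the gamma subunit, 2.11 and 2.06. ATP5IF1, which encodes the inhibitor of ATP hydrolysis by the enzyme, had 2.5 and 2.3. ATP5PD, ATP5PF, ATP5MC3 and ATP5MG lay between -0.14 and 0.06 on the log2 scale in monoculture, and ATP5PD, ATP5PF and ATP5MG are named here after their values were seen.

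Complex III held an uneven pair. UQCRC2 (chromosome 16, 21952660 to 21983660) had 61 and 62.1 CPM in the PC-3 monoculture and coculture and 219 and 245 CPM in those of LNCaP, with ratios of 3.59 (3.35 to 3.86) and 3.95 (3.68 to 4.25). UQCRC1, its partner core protein, had ratios of 0.786 (0.749 to 0.825) and 0.819 (0.781 to 0.859), and so was lower in LNCaP. In complex I, NDUFB10 had ratios of 2.59 and 3.03, NDUFS4 2.8 and 2.35, and NDUFV2, an iron-sulfur subunit of the NADH-oxidising arm, 0.625 and 0.726. In complex II, SDHC was higher in LNCaP (log2 folds 0.68 and 0.53), while SDHA (-0.37 and -0.30), SDHB (-0.39 and -0.09) and SDHD (-0.01 and -0.17) lay below 0.

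**Figure D3:**
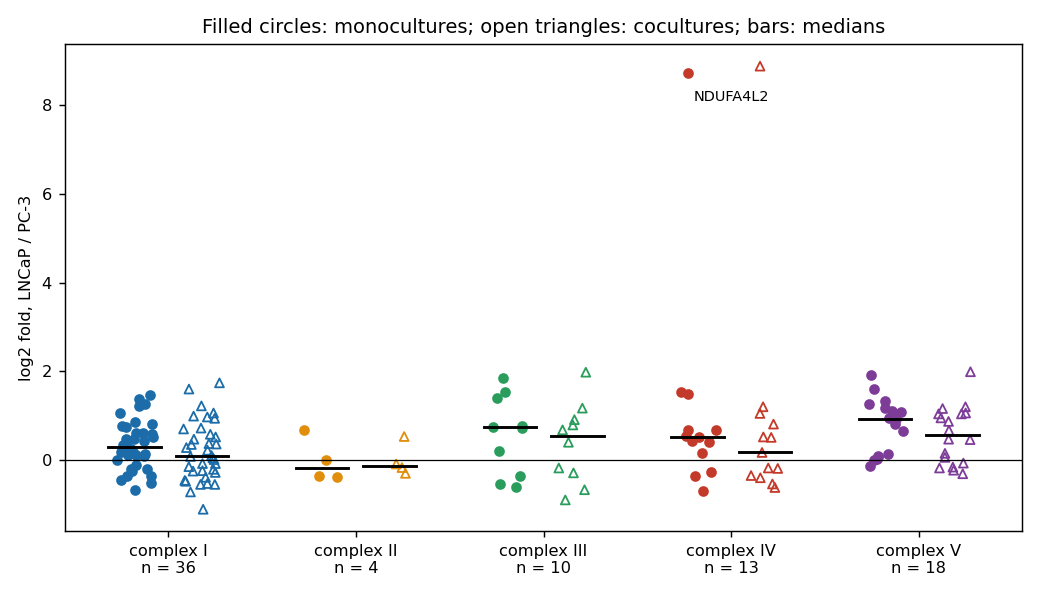
Log2 fold of LNCaP against PC-3 (vertical axis) for the 81 members with a mean of at least 20 CPM by complex (horizontal axis), with filled circles for the monocultures, open triangles for the cocultures and bars for medians. NDUFA4L2 stands alone at 8.73 and 8.88, and the remaining members lie between -1.11 and 1.99.

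NDUFA4L2 differed most between the lines. NDUFA4 is a subunit of complex IV, and NDUFA4L2 (chromosome 12, 57234903 to 57240715) is a paralogue known to be induced by hypoxia and to lower complex I activity. NDUFA4L2 had 1.88 and 1.34 CPM in the PC-3 monoculture and coculture and 851 and 690 CPM in those of LNCaP. The groups were far apart, and the ratio was 453 (317 to 671) in monoculture and 515 (336 to 832) in coculture, resting on 30 and 21 counts in PC-3. Among all genes measured this log2 fold ranked 46 of 15160 in monoculture and 30 of 15155 in coculture. By counts NDUFA4L2 ranked 103 of 17791 genes in the LNCaP monoculture. Its share of the summed counts of the pair in PC-3 was 2.53% (1.71 to 3.59, Clopper-Pearson) in monoculture and 2.6% (1.62 to 3.95) in coculture. In LNCaP the share was 88.9% (88.4 to 89.4) and 94% (93.5 to 94.4). Between the LNCaP libraries NDUFA4 was 2.4-fold lower in coculture and NDUFA4L2 1.23-fold lower (1.2 to 1.27). HIF1A, the regulator known to act on NDUFA4L2, had 233 and 261 CPM in the PC-3 monoculture and coculture and 132 and 187 CPM in those of LNCaP. Its part in the NDUFA4L2 difference was not tested. The NDUFA4L2 promoter window held 2 matches of GCGTG, as shown above.

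Other isoform sets differed less. COX7A2L, a COX7A-like protein that links complexes III and IV into supercomplexes, made up most of the COX7A set in PC-3 and the smaller part in LNCaP. COX7A2 took 34.2% (32.4 to 36) and 34.7% (32.6 to 36.8) of the set in the monoculture and coculture of PC-3. In those of LNCaP it took 70.3% (68.8 to 71.8) and 62.8% (60.7 to 64.8). ATP5MC1, ATP5MC2 and ATP5MC3 encode the same mature c subunit of the ATP synthase ring. ATP5MC3 took 50.9% and 49.7% of that set in the PC-3 monoculture and coculture, and 33.8% and 28.9% in those of LNCaP. ATP5MC2 took 38.6%, 40.2%, 53.2% and 56.1%, in the order PC-3 monoculture, PC-3 coculture, LNCaP monoculture and LNCaP coculture. COX6B1 took at least 98.1% of the COX6B set in every library. COX6B2 had 16 and 14 counts in the PC-3 libraries and 0 in those of LNCaP, so it was at least 5.28-fold lower in the LNCaP monoculture (floor of 3 counts per library). COX7B2 had 3 counts in the LNCaP monoculture against 25 in that of PC-3, a ratio of 0.121 (0.0234 to 0.398). UQCRH and UQCRHL are near-identical copies whose reads the counting could split. Their summed ratios were 0.825 (0.766 to 0.888) for the PC-3 coculture against its monoculture, 0.564 (0.534 to 0.596) for the LNCaP coculture against its monoculture, 2.3 (2.16 to 2.44) for LNCaP against PC-3 in monoculture and 1.57 (1.46 to 1.68) in coculture.

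**Figure D4:**
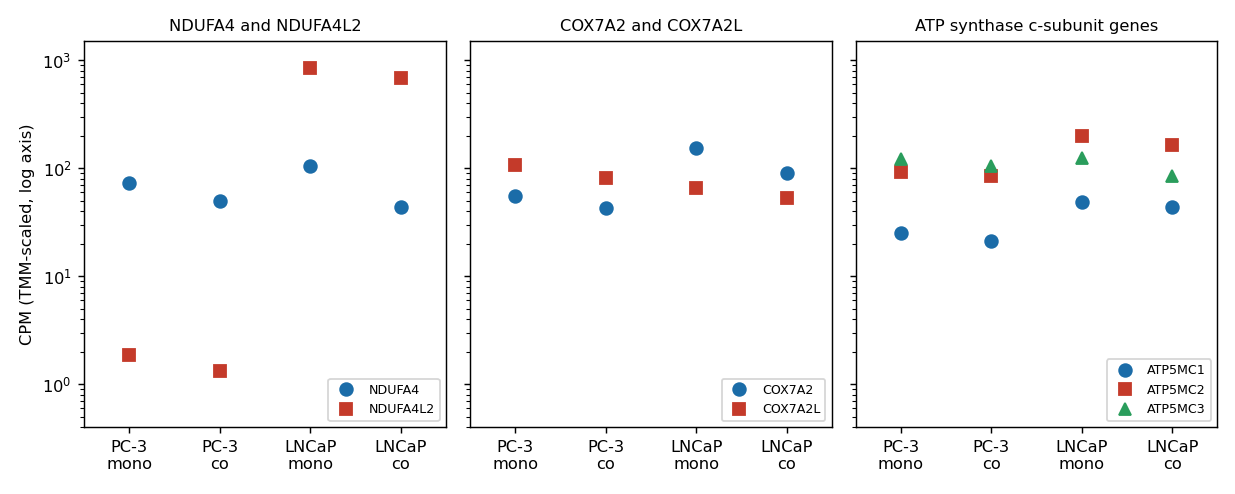
CPM on a log axis (vertical) of NDUFA4 and NDUFA4L2, of COX7A2 and COX7A2L, and of the ATP synthase c-subunit genes in the 4 libraries (horizontal), 1 point per gene and library. NDUFA4L2 is at 1.88 and 1.34 CPM in PC-3 and 851 and 690 CPM in LNCaP, COX7A2 and COX7A2L are in opposite order in the lines, and ATP5MC2 is above ATP5MC3 in LNCaP.

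The 4 members on chromosome 8 (COX6C, CYC1, NDUFB9 and UQCRB) were all lower in LNCaP in either format. Their median log2 fold was -0.53 in monoculture and -0.78 in coculture. CYC1, which encodes cytochrome c1 of complex III, had 277 and 256 CPM in the PC-3 monoculture and coculture and 182 and 161 CPM in those of LNCaP. NDUFB9 had 142 and 110 CPM in PC-3 and 99 and 50.7 CPM in LNCaP. The 105 other genes lying between the outermost of these members, at a mean of 20 CPM or more, had medians of -1.15 and -1.09, so these neighbours were lower as well. On chromosome 16, COX4I1, NDUFB10 and UQCRC2 were all higher in LNCaP in either format, with medians of 1.37 and 1.6. The 423 other genes of that chromosome at a mean of 20 CPM or more had medians of 0.46 and 0.45. The comparison by chromosome was made after the values had been seen. COX7A2L had a log2 fold of -0.70 in monoculture and NDUFV2 -0.68, and neither lies on chromosome 8.

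The genes that build, feed and regulate the chain were set beside the members. Assembly factors had a median log2 fold of -0.16 in the PC-3 coculture and -0.14 in that of LNCaP (49 of 50 measured), beside -0.32 and -0.42 for the members. After coding length correction the medians were -0.01 and -0.02 for assembly factors, beside -0.08 and -0.22 for the members. At least 1.5-fold lower were 1 assembly factor in PC-3 (2.04%, against 3.86% of all genes) and 6 in LNCaP (12.2%, against 8.95%). In LNCaP COX14, a complex IV assembly factor, had the lowest value at -1.08. Electron carriers and coenzyme Q synthesis genes had medians of -0.11 and -0.02, and citrate cycle genes -0.03 and 0.11, with no gene past 1.5-fold in either coculture. Against PC-3, LNCaP had medians of 0.71 and 0.98 for carriers and coenzyme Q synthesis in monoculture and coculture and 0.64 and 0.69 for the citrate cycle. In monoculture 7 of 12 carrier and coenzyme Q genes and 8 of 14 citrate cycle genes were at least 1.5-fold higher in LNCaP, and 1 and 0 lower. Of 49 assembly factors 16 were higher and 7 lower there, and their medians were 0.18 in monoculture and 0.15 in coculture. Over all genes 32.3% were higher and 31.4% lower in monoculture, so assembly factors lay near the background in the higher direction. Among the 13 measured regulators, LNCaP against PC-3 had medians of 0.17 in monoculture and -0.08 in coculture. At least 1.5-fold higher were 1 in monoculture and 2 in coculture, and lower 1 and 0. MYC had log2 folds of 2.06 and 1.85, TFB1M 0.35 and 0.67, and HIF1A -0.82 and -0.48. No measured regulator passed 1.5-fold in either coculture against its monoculture. These counts can be read against the shares over all genes given above for each comparison.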

How the data were processed

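The authors deposited 1 table of estimated counts by gene. Between 33.52% and 33.97% of values per library were not whole, and they were rounded. The submitters' processing notes name STAR, FastQC, Partek and hg38, with roles and versions not given in the sources used here. Per the labels, libraries used the TruSeq RNA v2 kit, a kit that keeps no strand information. All 4 columns were used.

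TMM factors (edgeR 4.0.16, R 4.3.3) lay between 0.9956 and 1.006. Log2 folds used a prior count of 2, and ratios have exact conditional binomial 95% intervals. Shares have Clopper-Pearson intervals, and differences of folds delta-method intervals. Genes reaching 1 CPM in either library of a comparison counted as measured, and for the difference in any of the 4. Named genes were, per comparison, the 5 highest and 5 lowest that reached 20 CPM in either library (for the difference, a mean of at least 20 CPM), members past 2-fold, isoform sets, core subunits and the extremes per length. Lengths are from GENCODE 29 (GRCh38), which held all 86 members, using the shortest transcript of the best APPRIS level. This choice replaced the longest transcript after values had been seen. The loess correction used span 0.3 and degree 1. Coordinates count from 1. The ratio intervals were run on simulated counts with counting error only, which holds no spread between libraries. The transcript length correction was run on simulated folds with a length trend, with changed genes placed without regard to length. It was not run on changed genes that are mostly short, as the members are. The coding length and longest-transcript corrections were not simulated. Python 3.11.15, pandas 2.3.3 and scipy 1.17.1 were used. The members and lists were chosen with earlier results of these data known. Alternatives were other scaling, prior count, filters, member sets and length corrections. Values of 1 member are not reported here by name.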

Additional observations from a re-analysis of the deposited data

How the results depend on the processing

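No paired analysis was possible because each group had 1 library. For the same reason no library could be left out. The medians over all measured members kept their sign under every alternative run. Medians near 0 of smaller lists did not: that of the core subunits in the PC-3 coculture went from -0.11 to 0.02 after transcript length correction, and that of carriers and coenzyme Q genes in the LNCaP coculture from -0.02 to 0.04. The coding length and longest-transcript corrections were chosen after seeing the data. The PC-3 coculture's 8 members at least 1.5-fold lower became 0 under the transcript length, coding length and longest-transcript corrections, with medians of -0.12, -0.08 and -0.11. In the LNCaP coculture the same 3 corrections gave 14, 14 and 14 lower at 1.5-fold, 2, 1 and 3 at 2-fold, and medians of -0.19, -0.22 and -0.25. With no filter 2 members were higher there at both thresholds. For LNCaP against PC-3 in monoculture, the transcript and longest-transcript corrections gave 12 and 15 lower at 1.5-fold, 9 and 10 higher at 2-fold and medians of 0.12 and 0.14. Filters of 5 or 20 CPM, members at a mean of 20 CPM, and leaving out isoform and inhibitor genes each gave 3 lower at 1.5-fold and 0 at 2-fold. In coculture the transcript, coding and longest-transcript corrections gave 11, 8 and 12 lower at 1.5-fold. At 2-fold the transcript and longest-transcript corrections gave 2 and 2 lower and 7 and 5 higher, and no filter gave 3 lower. The difference of folds had 0 members higher at 1.5-fold with members at a mean of 20 CPM, without isoform and inhibitor genes, or after coding length correction, and a median of -0.07 after transcript length correction. DESeq2 size factors, total counts and a prior count of 0.5 moved none of these counts by over 1.5 times. Counts after a length correction or another filter have no share over all genes under the same setting beside them. The cause of each shift was not tested.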
